A study of Saccharomyces cerevisiae with 16 samples.

Results

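Continuous and batch fermentations of the wine yeast Saccharomyces cerevisiae EC1118, a commercial diploid strain, were compared by their gene expression. The question was which genes differed from batch in the same direction in all 3 continuous conditions, with or without added nitrogen. The comparison used 14 of the 15 samples in the series: 4 labelled Batch, 4 labelled Without addition, 3 labelled Ammonium addition and 3 labelled Valine addition. The remaining sample carried labels that contradicted each other and was left out. All cultures were fed a synthetic grape must, in which nitrogen was set to 100 mg/L and glucose to 200 g/L. Batch cultures were kept at 28 °C and sampled in stationary phase, when 164 g/L glucose was left. Continuous fermentation used a chain of 4 tanks, and its samples came from the third tank, where the cells had exhausted the nitrogen. Without addition, 164 g/L glucose was left there as well, and the other groups received 100 mg/L nitrogen in that tank, as ammonium or as valine. The labels give neither the temperature of the continuous fermentation nor the glucose left after an addition. Samples of each continuous condition were drawn 24 h apart from a running culture, so its condition and the time of the run cannot be told apart. The labels do not settle if each batch sample had a fermentor of its own, and the p-values measure only the spread between these samples, which may be technical.

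Each continuous group was compared with batch, and the equal-weight mean of the 3 continuous groups was compared with batch as well. A gene was counted as shared when its adjusted p was under 0.05 in each of the 3 group comparisons and its 3 differences had 1 sign. Of 6248 measured features, 1791 (28.7%) met this rule. All 3 comparisons use the same 4 batch samples, so a batch value that is high or low moves all 3 differences together.

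As background, a yeast cell divides by budding, and daughter and mother part when the daughter secretes glucanases and chitinase that dissolve the septum between them. A growing cell spends much of its transcription on ribosomes and their assembly factors, and this expenditure falls when nutrients run out. In must, nitrogen is usually exhausted long before sugar, so wine yeast ferments most of the sugar as resting cells in stationary phase. In a series of tanks the medium flows through continuously, and a tank can hold cells at 1 phase of the fermentation for a long time.

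The values are log2 intensities on arrays whose medians lay between 9.09 and 9.10. Each array was brought to nearly the same distribution before deposit, so a change in total mRNA between cultures would not be seen. Any 2 samples of 1 group differed over all features by an SD between 0.11 and 0.30 (log2). The highest value came from batch sample 1, whose pairs with the other batch samples had an SD of 0.20 to 0.30, while the other batch pairs had 0.12 to 0.17. Samples without addition differed from batch samples with an SD of 0.38 to 0.56, those with ammonium with 0.77 to 0.88 and those with valine with 0.78 to 0.82. The distance from batch was therefore larger than the spread within groups in all 3 conditions, and larger with a supplement than without.

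In the equal-weight comparison 2044 genes were higher than batch (32.7% of all features) and 2170 were lower (34.7%) by limma's test with Benjamini-Hochberg adjustment. Without addition, 57.3% of features differed from batch, against 68.7% with ammonium and 66.5% with valine. Shared in direction by all 3 conditions were 870 higher genes (13.9%) and 921 lower genes (14.7%). At least 2-fold in each condition were 57 of the higher genes (0.912%) and 48 of the lower ones (0.768%). No overlap between the 10 continuous and the 4 batch samples was seen for 743 of the 870 and 768 of the 921 shared genes, where 12.6% of all features lay wholly above batch and 12.9% wholly below. The shared genes were chosen from these same samples, so this separation follows in part from the choice and is no separate evidence. With the 10 continuous samples treated as 1 group, which takes the spread between nitrogen conditions into the error, the equal-weight counts fell to 1207 higher and 1222 lower. Within slide 1 the shared genes numbered 348 higher and 399 lower, and within slide 2 they numbered 572 and 594. Slide 1 held 3 batch and 2 valine samples but 1 sample without addition and 1 with ammonium, and slide 2 held 3 samples of each of these but 1 of batch and 1 with valine. A lone sample has no spread of its own, so these fits assume that it varies like the groups with several samples, and they compare with that 1 sample.

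The group without addition had the smallest difference of the 3 in 589 of the 870 shared higher genes (67.7%) and in 557 of the 921 shared lower genes (60.5%). The same held for 53.1% of all features, and the shares were not tested against each other. Median log2 fold changes of the shared higher genes were 0.41 without addition, 0.65 with ammonium and 0.61 with valine. For the shared lower genes the medians were -0.44, -0.66 and -0.63. From here on, 3 log2 fold changes given together stand in that order. The genes were also sorted into 48 lists by function, and of the 23 counts of 0 shared members in 1 direction, 20 were 0 at an unadjusted p under 0.05 as well and the other 3 were 1. An F test among the 3 continuous groups called 673 of the 870 higher (77.4%) and 645 of the 921 lower genes (70.0%), shares on either side of the 73.4% of all features.

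**Figure D1:**
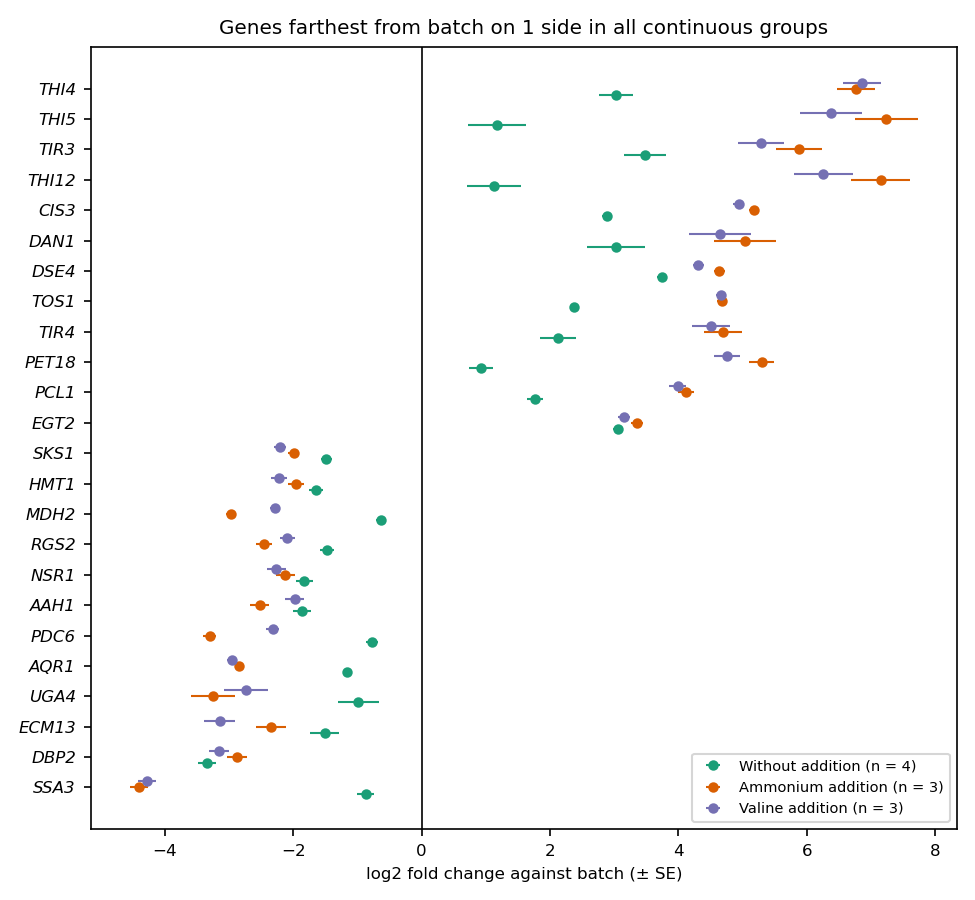
Log2 fold changes against batch (x axis, points, bars ± SE) of the 12 named genes with the largest shared increase and the 12 with the largest shared decrease, in each of the 3 continuous groups. Only genes without overlap between continuous and batch samples were eligible. All points of a gene lie on 1 side of 0 by the rule for shared genes. EGT2 has its 3 points close together (3.06, 3.36 and 3.15). THI5, SSA3 and PDC6 lie much closer to 0 without addition than with a supplement.

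Genes that part daughter from mother cells were the group with the largest share of higher members. Of 13 measured genes of cell separation and daughter-specific expression, 12 were shared higher, with medians of 1.51, 2.08 and 1.79. PRY3, a wall protein of this list, was higher without addition (0.89) and with ammonium (0.72), and its difference of 0.31 with valine did not pass (adjusted p = 0.0555). DSE4, which encodes the glucanase that daughters secrete onto the septum, read 6.86, 6.76, 6.49 and 6.55 log2 intensity in batch. In the continuous samples it read 10.35, 10.47, 10.32 and 10.48 without addition, 11.26, 11.39 and 11.26 with ammonium, and 10.94, 11.01 and 10.98 with valine. Every continuous sample lay above every batch sample, those without addition were the lowest of the 10, and the equal-weight log2 fold change was 4.23 ± 0.06 (SE; adjusted p = 8.76e-16). EGT2, a wall protein needed for separation, read 8.80, 8.70, 8.39 and 8.37 in batch and between 11.57 and 11.94 in the 10 continuous samples. Its 3 log2 fold changes of 3.06, 3.36 and 3.15 lay close together. DSE2, a further secreted daughter protein, was higher by 2.69, 3.31 and 3.42, and SUN4, a septum protein of the SUN family, by 1.61, 2.65 and 2.70. CTS1, the chitinase of cell separation, was higher by 1.74, 2.27 and 2.12. ASH1, the repressor that keeps daughters from switching mating type, was higher by 1.31, 1.49 and 1.37.

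Mitotic genes were higher as well. Of 22 genes of the CLB2 cluster, which peaks in mitosis, 16 were shared higher and 0 shared lower, with medians of 0.69, 1.10 and 1.11. CLB1, a mitotic cyclin, read 6.96, 6.95, 7.09 and 6.99 in batch, 8.41, 8.54, 8.56 and 8.66 without addition, 10.28, 10.16 and 10.42 with ammonium, and 10.40, 10.24 and 10.18 with valine. The 3 steps did not overlap: batch was lowest, no addition intermediate and both supplements highest, with an equal-weight log2 fold change of 2.70 ± 0.06. HOF1, which drives closure of the bud neck, was higher by 1.78, 2.74 and 2.47. CHS2, the synthase that lays down the chitin of the primary septum, was higher by 1.39, 1.99 and 1.88. The kinase gene ALK1 was higher by 1.94, 2.41 and 2.34. AIM44, whose product sits at the bud neck, was higher by 1.77, 1.92 and 2.09. RNA from whole cultures does not tell a larger share of cells in 1 stage of the cycle from more RNA per cell at that stage.

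Genes of the G1 and S phases were shared less completely, with 12 of 25 higher and 1 lower, where 13.9% and 14.7% of all features were. The G1 cyclin gene PCL1 was the highest of them (1.77, 4.12 and 3.99), and it did not overlap with batch, whose samples lay between 6.13 and 6.29 while the 10 continuous samples lay between 7.85 and 10.57. CLN1, another G1 cyclin, was higher by 1.17, 2.88 and 2.68, and PCL9, expressed late in mitosis and in early G1, by 1.45, 1.78 and 1.53. RNR1, the large subunit of the enzyme that makes deoxyribonucleotides, was higher by 0.98, 3.61 and 3.50. CLN3, the cyclin that starts the G1 programme, was the lower member (-0.37, -0.19 and -0.65), and its shared call was lost without ammonium sample 1, batch sample 2 or batch sample 4 (highest limma adjusted p of the 3 comparisons 0.157, 0.0663 and 0.0517). Among 10 histone genes 5 were shared higher and 0 lower. HTZ1, a histone variant, was higher by 0.76, 1.46 and 1.31, and HHF2, which encodes histone H4, by 0.58, 1.22 and 1.13.

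**Figure D2:**
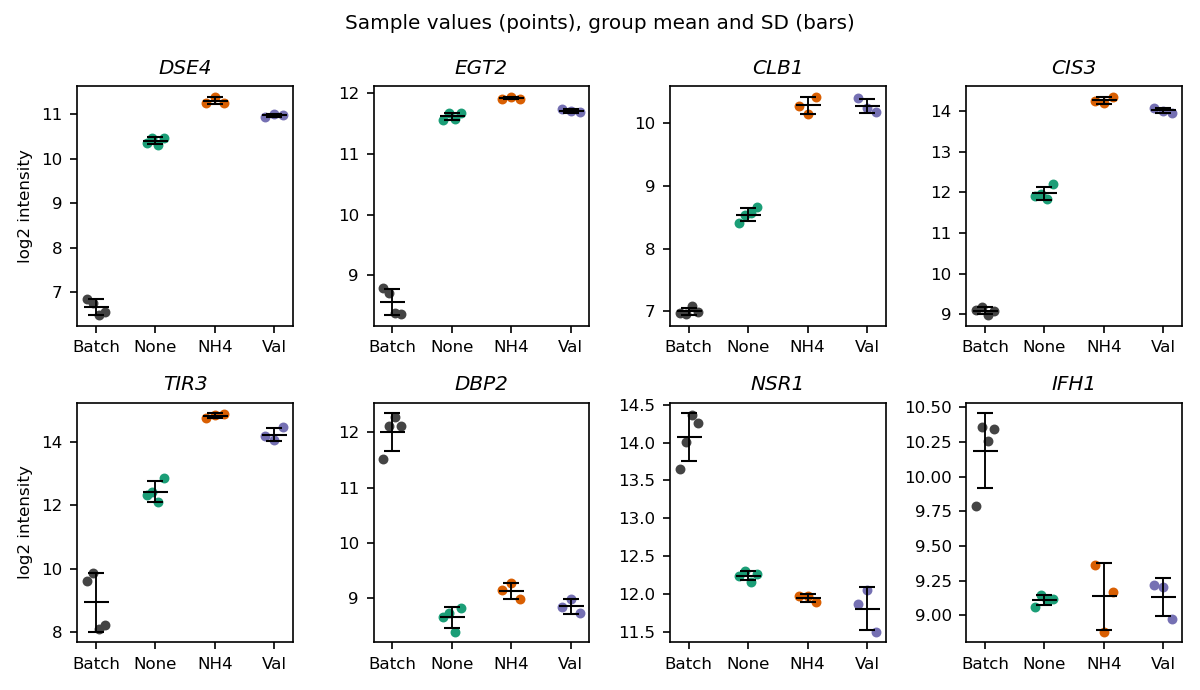
Log2 intensity (y axis, a separate scale for each gene) of 8 genes in the 14 samples (points), with the mean and SD of each group (bars): Batch, Without addition (None), Ammonium addition (NH4) and Valine addition (Val). DSE4, EGT2, CLB1, CIS3 and TIR3 lie above batch in all 10 continuous samples, and DBP2, NSR1 and IFH1 lie below; the batch samples of TIR3 fall into a higher and a lower pair.

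The wall itself changed in part of its genes, where 13.9% of all features were shared higher and 14.7% lower. Of 29 measured genes of wall synthesis and structure 10 were shared higher, and 1, the glucanase gene EXG1, was shared lower (-0.19, -0.35 and -0.20), though not without batch sample 2 or valine sample 3 (highest limma adjusted p 0.0512 and 0.0903). CIS3, a glycoprotein linked to the glucan of the wall, read 9.11, 9.18, 8.98 and 9.09 in batch. It read 11.92, 11.95, 11.83 and 12.20 without addition, 14.25, 14.20 and 14.35 with ammonium, and 14.09, 14.01 and 13.96 with valine. Batch lay below every continuous sample, and the samples with a supplement lay above those without, at an equal-weight log2 fold change of 4.33 ± 0.06 (adjusted p = 8.59e-16). TOS1, a wall-bound protein, was higher by 2.37, 4.67 and 4.66, and PIR1, a relative of CIS3, by 2.07, 2.61 and 2.34. GAS3, of a family that remodels glucan, was higher by 1.17, 2.81 and 2.78. The median of the whole list was only 0.13, 0.33 and 0.57. The higher genes named here were picked for large differences or small adjusted p, so they lie above it by selection.

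Mannoproteins known from anaerobic and cold-grown cells were higher in all 3 conditions. Of 6 measured DAN and TIR genes 5 were shared higher, with medians of 1.95, 4.27 and 3.91. DAN4, a member of the same group, was lower without addition (-0.34) and higher with ammonium (1.05) and valine (0.74). TIR3 read 9.63, 9.87, 8.09 and 8.22 in batch, 12.33, 12.42, 12.12 and 12.88 without addition, 14.75, 14.83 and 14.89 with ammonium, and 14.18, 14.06 and 14.46 with valine. The 10 continuous samples lay above batch, but the batch samples themselves formed a higher and a lower pair. DAN1 was parted in the same way, with 10.14 and 10.09 in batch samples 1 and 2 and 7.73 and 7.90 in samples 3 and 4. The equal-weight log2 fold change of DAN1 was accordingly 4.24 ± 0.37 with all batch samples, 5.39 against samples 3 and 4 alone and 3.09 against samples 1 and 2 alone, and that of TIR3 was 4.88, 5.68 and 4.08. TIR1 (1.78, 3.07 and 2.98) and TIR2 (0.99, 3.85 and 3.32) were higher too, and so was TIR4, by 4.69 with ammonium, 4.51 with valine and 3.77 in the equal-weight comparison. All 5 genes stayed shared against either pair of batch samples. What set the batch pairs apart was not tested.

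The PAU family, small seripauperin genes that anaerobic cells also express, had 20 of 24 members shared higher and 0 lower. The medians were 0.48, 0.98 and 0.59, so the increase was much smaller than that of the DAN and TIR genes. PAU8 was higher by 0.40, 1.08 and 0.86, and PAU10 by 0.53, 1.09 and 0.68. PAU11 (0.23, 1.09 and 0.76) and PAU12 (0.40, 0.97 and 0.67) were higher as well. Members of this family are nearly identical in sequence, so 1 probe may read several of them and the 20 calls are not independent. Within slide 1 alone 2 of the 24 were shared, and 16 were within slide 2. Among 7 adhesin genes, which let cells stick to each other, FLO9 (0.33, 1.80 and 1.89), FLO5 (0.33, 1.68 and 1.74) and AGA1 (0.64, 0.80 and 0.42) were higher, whereas FLO1 was lower (-0.36, -1.12 and -0.95). The FLO genes share repeats, and their probes may read each other.

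**Figure D3:**
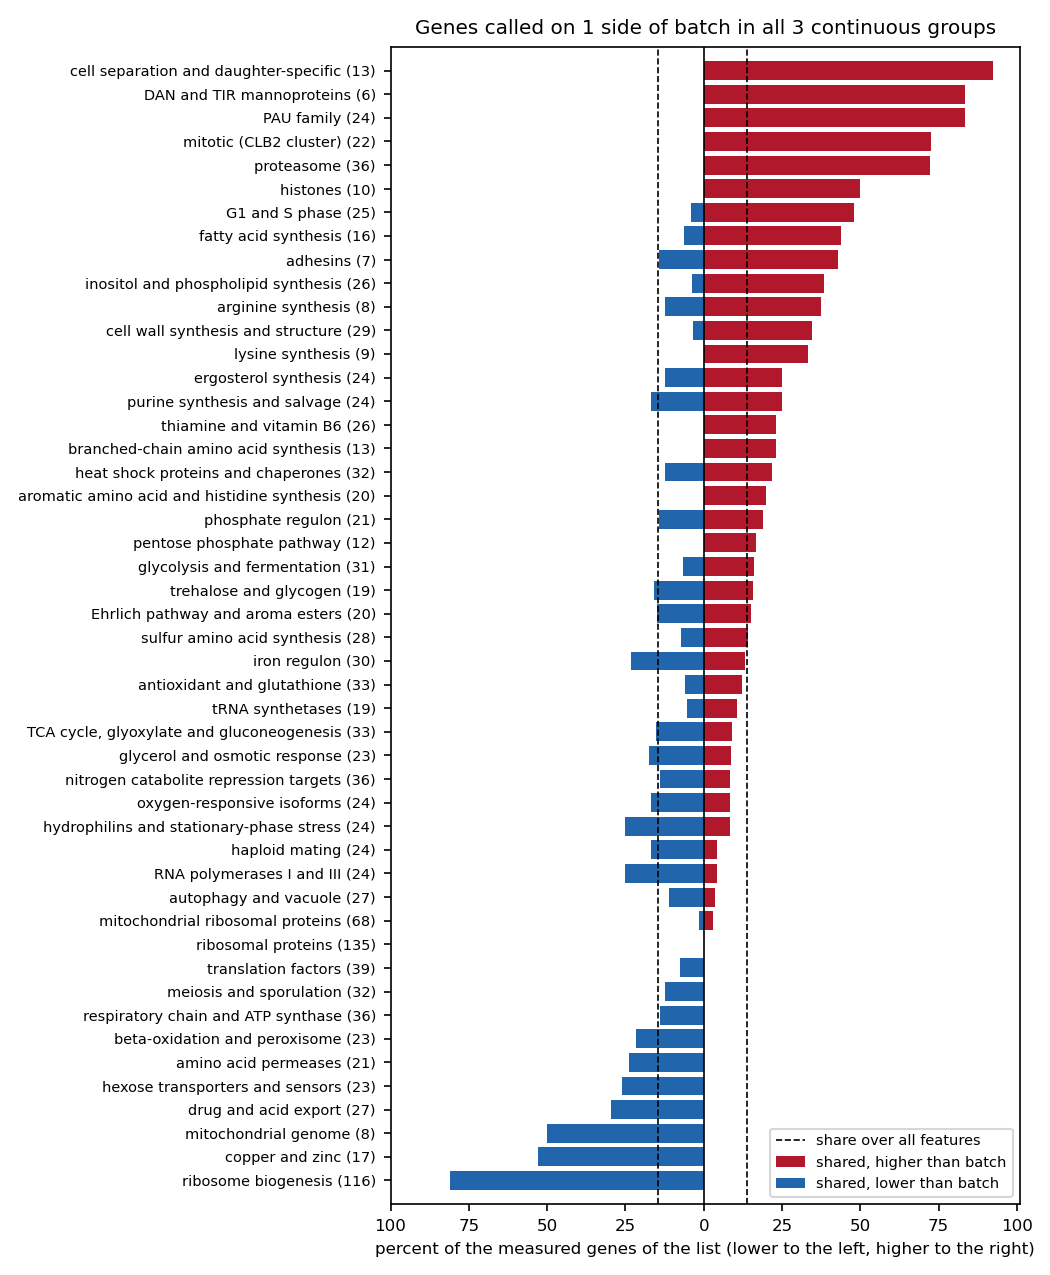
Share of the measured genes of each list (percent, x axis) that was called on 1 side of batch in all 3 continuous groups, lower to the left and higher to the right, with the number of measured genes in parentheses. Dashed lines mark the shares over all features, 13.9% higher and 14.7% lower; cell separation (92.3% higher) and ribosome biogenesis (81.0% lower) lie at the ends.

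Factors that build ribosomes were the list with the largest share of lower members. Of 116 measured ribosome biogenesis genes 94 were shared lower and 0 shared higher, with medians of -1.02, -0.65 and -0.70. Without addition 116 of 116 were lower, against 27.0% of all features. With ammonium 96 were lower (35.5% of all features) and with valine 97 (34.8%), and 1 was higher with each. This is a group in which the culture without addition lay farther from batch than the supplemented ones. DBP2, an RNA helicase of rRNA processing and mRNA export, read 11.51, 12.11, 12.27 and 12.12 in batch. It read 8.66, 8.74, 8.40 and 8.83 without addition, 9.14, 9.27 and 8.99 with ammonium, and 8.84, 8.98 and 8.73 with valine. The equal-weight log2 fold change was -3.12 ± 0.12 (limma adjusted p = 1.37e-11). That the groups did not overlap with batch was a condition of its choice. Of the nucleolar assembly factors, NOP15 had log2 fold changes of -1.21, -1.25 and -1.37, and FAF1 was lower by a smaller amount without addition (-0.92) than with ammonium (-1.31) or valine (-1.28). HAS1, a nucleolar helicase, was lower by a larger amount without addition (-1.71) than with ammonium (-0.79) or valine (-1.07).

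Single genes of related and of other functions were lower as well. NSR1, a nucleolar protein that binds pre-rRNA, read 13.65, 14.01, 14.36 and 14.25 in batch and between 11.50 and 12.31 in the continuous samples, with log2 fold changes of -1.83, -2.12 and -2.26. HMT1, which methylates arginines of RNA-binding proteins such as Nsr1, had log2 fold changes of -1.65, -1.95 and -2.22. TRM11, a subunit of a tRNA methyltransferase, had -1.50, -1.45 and -1.52. SDA1, needed for the large ribosomal subunit and already counted above among the ribosome biogenesis genes, had -0.97, -1.06 and -0.99. AAH1, the adenine deaminase that growing cells use and resting cells remove, had -1.87, -2.52 and -1.98. Of 24 genes of RNA polymerases I and III 6 were shared lower, against 14.7% of all features. Among them were RRN11 (-1.56, -0.87 and -1.30) of the polymerase I core factor and the polymerase III subunit RPC37 (-0.72, -1.04 and -0.79). RRN3, a polymerase I initiation factor, was the shared higher member (0.32, 0.20 and 0.21).

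Ribosomal protein genes did not follow the assembly factors. Of 135 measured ribosomal protein genes 0 were shared in either direction by limma's test, also at an unadjusted p under 0.05, and the medians were -0.60 without addition, 0.46 with ammonium and 0.30 with valine. Their coactivator IFH1 was nevertheless lower in all 3 conditions. It read 9.79, 10.35, 10.26 and 10.35 in batch, 9.06, 9.15, 9.11 and 9.12 without addition, 9.36, 8.88 and 9.17 with ammonium, and 9.22, 9.20 and 8.97 with valine. All continuous samples lay below all batch samples, and the log2 fold changes were -1.08, -1.05 and -1.06. Translation factors had 3 of 39 members shared lower, a smaller share than the 14.7% of all features, and 0 higher. The lower members were YEF3 (-0.72, -0.32 and -0.25), GCD10 (-1.50, -0.61 and -0.54) and GCD14 (-0.67, -0.39 and -0.35). The call of GCD14 was lost without any 1 sample other than batch 1, ammonium 1 and valine 2 (limma adjusted p up to 0.211). YEF3 encodes the fungal elongation factor 3, and GCD10 and GCD14 encode the subunits of a tRNA methyltransferase. IMD4, of guanine nucleotide synthesis, was lower without addition (-1.88) and with valine (-0.45), while its difference with ammonium was 0.02. Among 19 tRNA synthetase genes TYS1 (0.72, 1.87 and 1.84) and GUS1 (0.35, 0.78 and 0.74) were higher and KRS1 (-1.06, -0.61 and -0.58) was lower.

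Proteasome genes, which encode the complex that degrades ubiquitin-tagged proteins, were higher by a small amount. Of 36 measured genes 26 were shared higher and 0 lower, with medians of 0.49, 0.34 and 0.32. RPN12, of the regulatory particle, read 10.86, 10.79, 10.73 and 10.77 in batch and between 11.36 and 11.70 in the continuous samples. It did not overlap with batch, and its log2 fold changes were 0.86, 0.62 and 0.68. The regulatory subunit RPN3 was higher by 0.58, 0.55 and 0.36, and the core subunits PRE8 by 0.70, 0.69 and 0.56 and PUP2 by 0.78, 0.55 and 0.62. For 22 of the 26, the 95% confidence intervals of all 3 differences between continuous groups lay within ±0.5 on the log2 scale, a limit chosen after the data were seen. That limit is about as wide as the differences from batch, and 43.8% of all features met it, so it does not show an even increase. For RPN12 the intervals of ammonium and of valine against no addition, -0.35 to -0.13 and -0.29 to -0.07, left out 0. Within slide 1 alone 14 of the 36 were shared, and 18 were within slide 2.

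**Figure D4:**
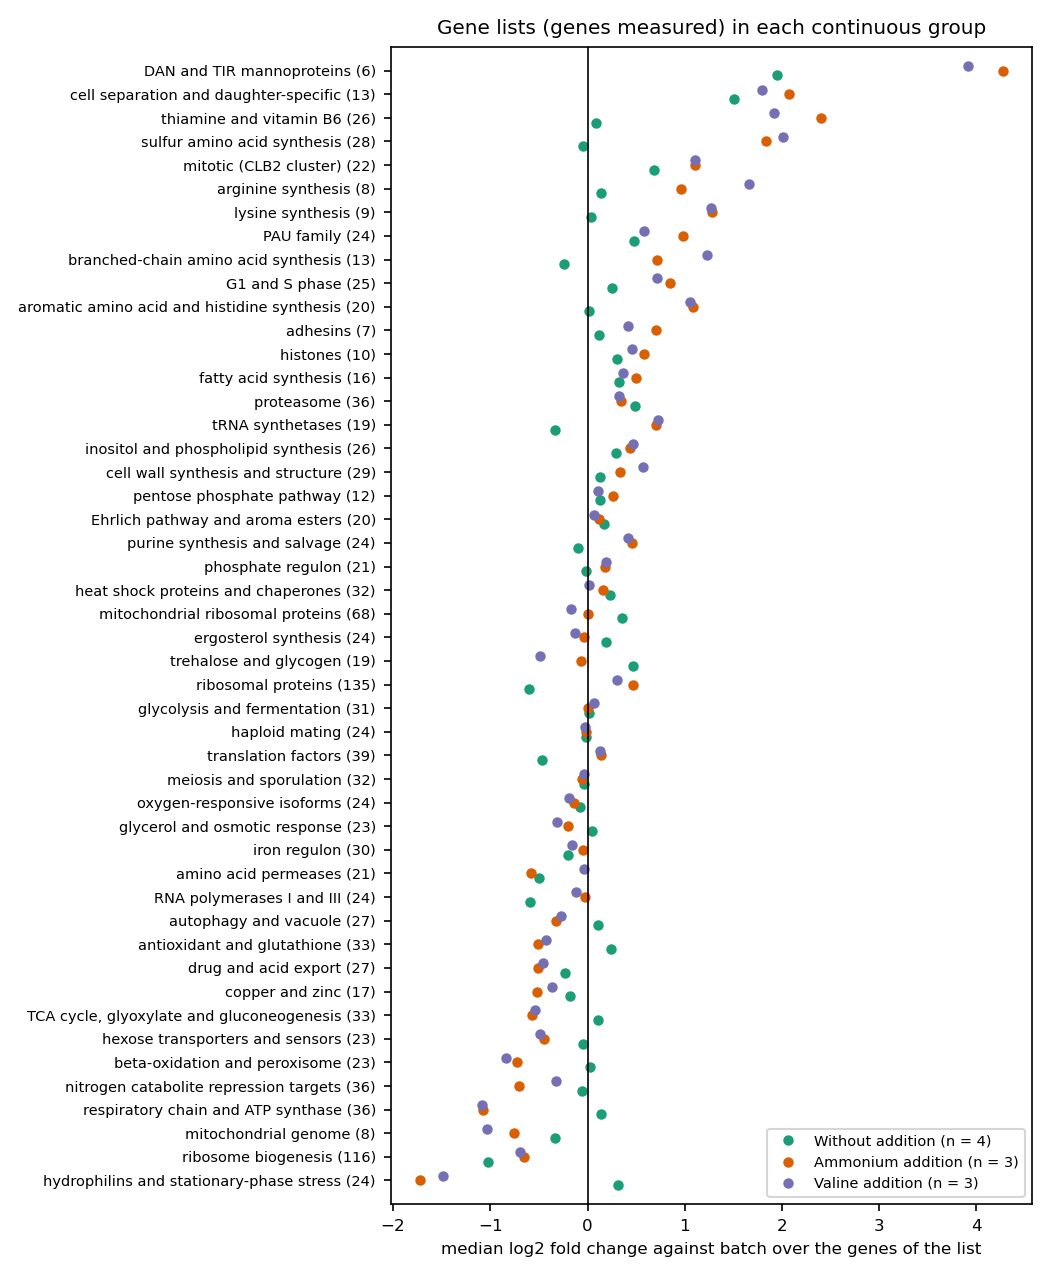
Median log2 fold change against batch (x axis) over the measured genes of each list (their number in parentheses) in the 3 continuous groups. Ribosome biogenesis lies below 0 in all 3 groups (-1.02, -0.65 and -0.70), ribosomal proteins on both sides (-0.60, 0.46 and 0.30), and the respiratory chain at 0.14 without addition but at -1.07 and -1.08 with ammonium and valine.

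Several genes of glucose sensing and the phosphatases of glycerol synthesis were lower. The labels give 164 g/L glucose left in batch and without addition, and no value with a supplement. Of 23 hexose transporter and sensor genes 6 were shared lower and 0 higher, where 14.7% and 13.9% of all features were. HXT4, a glucose transporter, had log2 fold changes of -1.36, -1.31 and -1.25. The glucose sensor RGT2 had -0.20, -0.79 and -0.64, its partner STD1 in glucose signalling -0.83, -1.18 and -1.17, and MIG1, the repressor of genes for other sugars, -0.73, -1.19 and -1.42. HXK1, a hexokinase, read 12.96, 12.52, 12.37 and 12.67 in batch and between 13.64 and 14.40 in the continuous samples, and was higher by 1.47, 1.47 and 1.16. PFK27, which makes an activator of phosphofructokinase, was lower (-1.37, -1.55 and -1.39). GPP1 (-1.12, -2.27 and -1.79) and GPP2 (-1.31, -1.51 and -1.56), which encode the phosphatases of the last step to glycerol, were lower. The transporter HXT1 was not shared (0.01, -0.98 and -0.48), nor was HXT5, a transporter of slow-growing cells (-0.11, -5.75 and -5.03).

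Reserve carbohydrate genes went both ways. GSY1, a glycogen synthase, was higher by 1.79, 2.58 and 2.03, and PGM1, a phosphoglucomutase, by 0.58, 1.63 and 1.59. GLG2, which primes glycogen, was lower (-0.25, -1.50 and -1.41), as was PIG2, a phosphatase partner linked to glycogen (-0.36, -1.62 and -1.52). Leaving out batch sample 2 or 4, or sample 1 or 4 of the group without addition, ended the call of PIG2 (limma adjusted p 0.053 to 0.0736). Of 19 genes of trehalose and glycogen 3 were shared higher and 3 lower, near the shares of all features (13.9% higher and 14.7% lower). GRE3, an aldose reductase induced by stress, was higher by 1.69, 0.62 and 0.71. Of the 31 glycolysis and fermentation genes 5 were shared higher, also near the share of all features, and 2 lower. PDC1, the main pyruvate decarboxylase, had differences of 0.07, 0.02 and -0.05 (equal-weight limma adjusted p = 0.893).

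Membrane lipid genes were more often higher than lower. Of 26 inositol and phospholipid genes 10 were shared higher and 1 lower, and of 16 fatty acid genes 7 were higher and 1 lower. Over all features 13.9% were shared higher and 14.7% lower. EPT1 (0.82, 1.62 and 1.67) and CPT1 (0.68, 1.27 and 1.08) encode the last enzymes of the phosphatidylethanolamine and phosphatidylcholine branches. SLC1, which acylates lysophosphatidic acid, was higher by 0.99, 1.74 and 1.72, and the inositol transporter gene ITR1 by 0.52, 1.02 and 0.74. FAS2, a subunit of fatty acid synthase, was higher by 0.49, 0.51 and 0.50. ELO3, an elongase of very long chains, was higher by 0.35, 3.53 and 3.30, so its difference was much larger with a supplement than without. Sterol genes went both ways, with ERG27 (0.73, 0.41 and 0.54) and ERG4 (0.30, 0.71 and 0.63) higher and IDI1 (-0.83, -1.44 and -1.43) and ERG5 (-0.39, -1.20 and -1.69) lower. Leaving out batch sample 2, 3 or 4, or sample 1 or 3 of the group without addition, ended the call of ERG5 (limma adjusted p 0.0502 to 0.117). In all, 6 of 24 sterol genes were shared higher and 3 lower, where 13.9% and 14.7% of all features were.

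Genes of copper, zinc and export were shared lower more often than all features, of which 14.7% were shared lower and 13.9% higher. Of 17 copper and zinc genes 9 were shared lower and 0 higher, with medians of -0.18, -0.52 and -0.37. ZRT1, the high-affinity zinc transporter, had log2 fold changes of -0.26, -0.52 and -0.68, ZPS1, a zinc-regulated surface protein, -0.74, -1.65 and -1.26, and CTR1, the copper transporter, -0.28, -0.71 and -0.66. In the iron regulon 7 of 30 were shared lower and 4 higher, the latter near the share of all features. The iron permease FTR1 (-0.53, -1.50 and -1.48) and the scaffold for iron-sulfur clusters ISU1 (-0.94, -1.30 and -0.93) were lower, while ISU2, its paralogue, was higher (0.44, 1.61 and 1.61). Of 27 genes of drug and acid export 8 were shared lower and 0 higher. AQR1, an exporter of the plasma membrane, had -1.16, -2.84 and -2.95, and HAA1, the regulator of the response to weak acids, had -0.53, -0.73 and -0.87.

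Genes of respiration were shared lower at about the share of all features. Of 36 nuclear genes of the respiratory chain and ATP synthase 5 were shared lower (13.9%, against 14.7% of all features) and 0 higher, although 36 were lower with ammonium and 35 with valine, where 35.5% and 34.8% of all features were. HAP4, the activator of respiratory genes, had -0.62, -2.26 and -2.40, COX5A, a cytochrome oxidase subunit, -0.51, -2.44 and -2.37, and NDE1, an NADH dehydrogenase, -0.77, -1.85 and -1.69. Of 8 genes on the mitochondrial genome 4 were shared lower, COX1 (-0.53, -1.13 and -1.12), COX3 (-0.60, -1.36 and -1.32), COB (-0.55, -0.92 and -0.95) and ATP8 (-0.37, -0.53 and -0.55). For COX1 the call ended when batch sample 1 or 2, or sample 1 or 3 of the group without addition, was left out (limma adjusted p 0.0539 to 0.12). ROX1, the repressor of genes used without oxygen, was lower (-1.04, -1.63 and -2.39). HEM13, a haem synthesis gene that Rox1 represses, was higher by 0.54, 2.54 and 2.24. Both belong to a list of 24 oxygen-responsive genes. Of these 2 were shared higher and 4 lower, where 13.9% and 14.7% of all features were. Other members differed from HEM13: ANB1 had 0.04, 1.16 and 0.82, AAC3 -1.02, 0.80 and 0.63, and COX5B 0.02, -0.67 and -0.48. Oxygen was not among the values in the labels.

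Thiamine genes had the highest shared differences, but mostly with a supplement. Of 26 genes of thiamine and vitamin B6 6 were shared higher, while 25 were higher with ammonium (33.2% of all features) and 25 with valine (31.6%). THI4, of thiazole synthesis, read between 8.85 and 9.32 in the 4 batch samples, 11.46, 11.93, 11.62 and 13.20 without addition, 15.73, 15.85 and 15.81 with ammonium, and 15.90, 15.83 and 15.92 with valine. The supplemented samples lay near the upper end of the arrays, where differences are compressed. THI5, of pyrimidine synthesis for thiamine, read 7.88, 7.56, 7.54 and 7.58 in batch and 8.25, 8.08, 8.13 and 10.80 without addition, so that sample 4 stood far above the other 3. With ammonium it read 14.74, 14.97 and 14.91, and with valine 14.41, 13.93 and 13.71. Its log2 fold changes were 1.18, 7.24 and 6.38, and those of its near-identical copy THI12, whose probe may read the same RNA, were 1.13, 7.15 and 6.25. Without no-addition sample 4 the first of these differences was 0.52 for THI5 (limma adjusted p = 0.0059) and 0.49 for THI12, and both shared calls were lost without batch sample 2, 3 or 4 (limma adjusted p 0.0642 to 0.0716). PET18 had 0.93, 5.29 and 4.76.

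Most of the 12 lower genes with the largest difference among those without overlap also differed more from batch with a supplement than without. PMA2, a shared lower gene outside these 12, had -0.45, -4.28 and -3.86. DBP2 did not (-3.35, -2.87 and -3.15). SSA3, a stress-induced chaperone of the Hsp70 family, read 13.10, 12.78, 13.04 and 13.03 in batch, 12.06, 11.93, 12.57 and 11.91 without addition, 8.36, 8.81 and 8.58 with ammonium, and 8.68, 8.65 and 8.80 with valine. The step from batch was small without addition (-0.87) and large with ammonium (-4.40) and valine (-4.28), without overlap in any group. SSA2, a chaperone of the same family that growing cells make, was higher by 0.55 without addition, 3.47 with ammonium and 3.50 with valine. PDC6, a minor pyruvate decarboxylase, had -0.77, -3.30 and -2.32, and MDH2, the cytosolic malate dehydrogenase, -0.64, -2.97 and -2.29. UGA4, the permease for gamma-aminobutyrate, had -0.98, -3.25 and -2.74, and ammonium sample 2 read 9.97 where samples 1 and 3 read 8.05 and 7.84. RGS2, a regulator of glucose signalling through a G protein, had -1.47, -2.45 and -2.09, and the kinase gene SKS1 -1.48, -1.99 and -2.20. ECM13 (-1.51, -2.35 and -3.15) completed the 12 lower genes.

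Genes of amino acid synthesis were shared higher in part of each list, where 13.9% of all features were. Of 8 arginine genes 3 were shared higher (37.5%), ARG4, the argininosuccinate lyase (0.67, 2.31 and 2.66), ARG7, an ornithine acetyltransferase (0.41, 1.81 and 1.98), and the ornithine transporter ORT1 (0.31, 0.84 and 1.22). CPA1, a subunit of carbamoyl phosphate synthase, was the shared lower member (-0.38, -1.08 and -0.54). Shared higher were also 4 of 20 aromatic and histidine genes and 4 of 28 sulfur amino acid genes (14.3%), with 0 and 2 lower. Of 13 genes of branched-chain synthesis 3 were shared higher (23.1%), BAT1 (0.39, 2.22 and 2.51), LEU2 (0.40, 1.02 and 1.23) and LEU1 (0.50, 0.71 and 0.79). Other genes of the same pathway were lower without addition and higher with both supplements. Among them were ILV5 (-1.20, 0.66 and 0.70), ILV1 (-0.48, 0.58 and 0.54), ILV3 (-0.44, 1.92 and 1.83) and ILV6 (-0.24, 0.65 and 0.62). Of 9 lysine genes 3 were higher (33.3%), LYS9 (1.27, 2.56 and 2.94), LYS21 (0.67, 2.03 and 1.85) and LYS12 (0.23, 1.52 and 1.71). Leaving out any 1 ammonium sample, batch sample 1 or 3, or sample 1 of the group without addition kept the call of LYS12, and leaving out each of the others ended it (limma adjusted p 0.0523 to 0.156). Of 21 amino acid permease genes 5 were shared lower (23.8%, against 14.7% of all features) and 0 higher. LYP1, the lysine permease, had nearly equal differences (-0.70, -0.71 and -0.72), whereas those of the arginine permease CAN1 were -0.49, -1.17 and -0.71. GAP1, the general amino acid permease, was not shared (-0.20, -0.95 and -0.33). CAR1, the arginase, was higher by 1.78, 1.70 and 1.17, and GDH3, a glutamate dehydrogenase, lower (-0.75, -2.39 and -2.38).

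**Figure D5:**
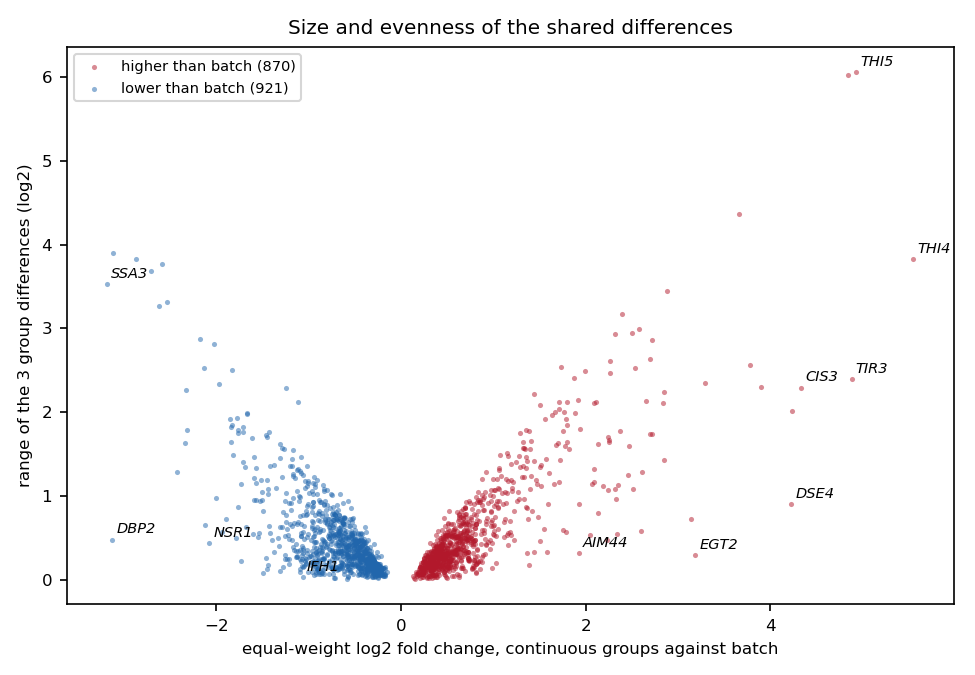
Equal-weight log2 fold change against batch (x axis) and the range of the 3 group differences (y axis, log2) of the 1791 shared genes, each a point, 870 higher and 921 lower. DBP2, NSR1, EGT2 and DSE4 combine a large difference with a range under 1, whereas THI5 and THI4 have ranges of 6.06 and 3.83.

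Some genes stood at nearly the same distance from batch in all 3 conditions. All 3 intervals of the differences between continuous groups lay within ±0.5 for 412 of the 870 higher genes (47.4%) and 443 of the 921 lower genes (48.1%), and the same held for 43.8% of all features. Among the genes with at least 2-fold in each condition it held for 4 of 57 higher genes (7.02%) and 15 of 48 lower genes (31.2%). The genes named next were picked for the smallest range of their 3 differences, so their evenness follows from the choice. For IFH1 the difference between ammonium and no addition was 0.03 with a 95% interval of -0.25 to 0.31, and between valine and no addition it was 0.02 (-0.26 to 0.30). For TRM11 these intervals ran from -0.13 to 0.23 and from -0.21 to 0.16. CNS1, a partner of Hsp90, had log2 fold changes of -1.08, -1.15 and -1.06, with intervals of -0.21 to 0.08 and -0.12 to 0.17. Among the higher genes, GCV3 of the glycine cleavage system (1.03, 0.94 and 1.14) had intervals of -0.27 to 0.08 and -0.07 to 0.28. For ASH1 the interval of ammonium against no addition, 0.04 to 0.32, left out 0, and for EGT2 it ran from 0.11 to 0.49. For HXT4 the intervals were wider, from -0.32 to 0.42 and from -0.27 to 0.48.

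Batch was not the extreme for every gene. In 577 genes (9.23%) all 3 comparisons were called but their signs differed. In 315 of these (5.04%) the gene was higher than batch without addition and lower with both supplements, and in 242 (3.87%) it was the reverse. DAL4, the allantoin permease, had 0.65, -2.75 and -3.74, and FMP16 and FMP45 had 0.65, -2.94 and -3.04, and 0.49, -2.84 and -2.57. In the reverse direction PHO84, the phosphate transporter, had -0.66, 2.44 and 2.29, LEU9 of leucine synthesis had -0.38, 2.22 and 2.15, and SAM1, which makes S-adenosylmethionine, had -1.14, 1.33 and 1.44. In 10 genes (0.16%) valine alone lay above batch, led by the amino acid permease AGP1 (-1.31, -1.16 and 2.45), the methionine permease MUP1 (-1.25, -1.12 and 0.41) and the oligopeptide transporter OPT1 (-0.56, -0.33 and 0.45). The supplemented conditions were opposed to each other in the rest too: in 4 genes (0.064%) ammonium stayed above batch and valine fell below, such as OPI3 (0.58, 0.17 and -0.26), and in 5 (0.08%), such as PNG1 (0.44, -0.26 and 0.26), the reverse held. SAH1, which hydrolyses S-adenosylhomocysteine, was the 1 gene (0.016%) higher with ammonium alone (-0.49, 0.18 and -0.21).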

How the data were processed

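Total RNA of 15 samples was hybridised to 16 one-colour arrays on 2 slides, each slide holding all 4 groups, some with 1 sample. The authors deposited log2 intensities per probe, made with R 2.13.1 and limma per the submitters' processing notes. The sources used here name neither a normalization nor a background correction nor flags of detection, and precision is limited by how few arrays there were. Of 6271 probes, 5220 had 1 gene symbol in the platform annotation, 1051 had none and 0 had several. Among the symbols 5167 were current and 51 were updated through a RefSeq gene table. Probes of a gene were averaged, which left 6248 features, and no filter was set. The arrays of ammonium sample 3, hybridised on both slides, were averaged and counted as 1 sample.

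The test was that of limma 3.58.1 under R 4.3.3 (lmFit, contrasts.fit and eBayes, two-sided). All 14 samples entered 1 fit of 4 group means, which left 10 residual degrees of freedom. P-values were adjusted by Benjamini-Hochberg over all 6248 features of each comparison, with a call at 0.05. The fit was tested on simulated data. Counts and figures came from Python 3.11.15, and the plots used matplotlib 3.10.9.

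The members, the 48 gene lists and the 16 panel genes were chosen with earlier results of these data known. Genes were named by rule. The first part took the 12 largest shared differences in each direction among genes with a standard name and without overlap with batch. The second took the 5 most even ones in each direction with a log2 difference of at least 1, and the third up to 4 shared members of each list with the smallest adjusted p. The panel, the 3 most divergent genes of each mixed pattern and the members of counts of 5 or fewer completed them. Others were named after their values were seen: PRY3, DAN4, CLN3, EXG1 and RRN3, as the exceptions of their lists. Sample numbers did not pair the groups: the deviations of 19 same-numbered pairs from their group means correlated between -0.57 and 0.31, and 4 were over 0.1. Of 54 pairs with different numbers 25 were over 0.1, and batch 1 with valine 3 had the highest value, 0.65. Some samples of different groups thus deviated together, and the cause was not tested. Alternatives covered slide, replicate number, weighting, normalization, dim features, array weights, variance model, probes, single arrays and left-out samples. Promoters and other sequences were not analysed here.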

Additional observations from a re-analysis of the deposited data

Results flagged for a closer look

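In groups of 4 samples, a sample was marked when its gap to the nearest other took up more of the group's range than Dixon's 95% limit allows. Chance marks about 1 in 20 such groups, and 20 of 294 groups tested for the 147 named genes were marked. The values are log2 intensities.

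No-addition sample 4 stood above the other 3 in thiamine genes, at 10.8018 for THI5 (others 8.08 to 8.25), 10.6086 for THI12 (8.02 to 8.14) and 10.4786 for PET18 (9.42 to 9.52). It was also high in SSA2, at 8.8856 (8.39 to 8.45), and low in ITR1, at 11.8231 (11.88 to 11.88).

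Batch sample 1 was low in IFH1, at 9.7889 (10.26 to 10.35), and in FTR1, at 9.5096 (9.84 to 9.89). The same sample was high in THI5, at 7.8795 (7.54 to 7.58), in MIG1, at 11.3071 (10.96 to 11.02), and in FLO9, at 6.7437 (6.52 to 6.53).

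No-addition sample 3 was high in FMP45, at 10.4431 (9.98 to 10.06), in PNG1, at 10.0361 (9.83 to 9.86), and in HOF1, at 7.8427 (7.77 to 7.78), and low in KRS1, at 13.0283 (13.22 to 13.24). No-addition sample 1 was high in DAN4, at 9.0801 (8.91 to 8.94), and low in TYS1, at 9.51 (9.63 to 9.64). In the other batch samples, sample 2 was high in YEF3, at 14.1324 (others at most 13.998), and sample 3 was low in EXG1, at 13.8155 (others up to 14.02). Sample 4 was high in DSE2, at 6.3782 (6.29 to 6.31), and low in ZRT1, at 7.8453 (7.89 to 7.89).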

How the results depend on the processing

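With the continuous samples as 1 group, 1207 genes were higher than batch and 1222 lower, where 2044 and 2170 were called with separate group means. Within slide 1 alone, 1682 genes differed from batch without addition (3582 with both slides), 348 were shared higher and 399 shared lower, and 2503 differed among the continuous groups (4587 with both slides). Within slide 2 alone the first 3 counts were 2387, 572 and 594. Both fits have fewer samples and groups of 1 sample, whose spread is taken from the others. Of the 870 and 921 shared genes 344 and 396 remained within slide 1 and 545 and 565 within slide 2. Asking for at least 2-fold in each group left 57 and 48. With the replicate block 817 genes were shared higher and 856 lower, of which 807 and 853 were among the 870 and 921, and the equal-weight difference of PDC1 became -0.0038. Without batch samples 3 and 4, chosen after seeing the data, 728 and 766 were shared, and without batch samples 1 and 2 942 and 1002. Leaving out 1 sample gave 1943 to 2071 higher and 2040 to 2184 lower genes in the equal-weight comparison, 3303 to 3862 without addition, 3986 to 4390 with ammonium, 3880 to 4242 with valine, 793 to 965 shared higher, 842 to 1025 shared lower and 4336 to 4806 among continuous groups. Of the 127 shared genes named with values, 118 kept the call without each of the 14 samples in turn.

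Signs reversed only for genes near 0. PDC1 (0.01) also became -0.0147 with the slide as a block, -0.1008 within slide 2, -0.1330 without batch samples 3 and 4, and -0.0414 to 0.0700 without 1 sample. ILV5 (0.05) became -0.0716 with the samples weighted equally, whether as 1 group or as 3, -0.0491 without batch 1, ammonium 2 and valine 3, -0.2756 without batch samples 1 and 2, and -0.1657 to 0.2056 without 1 sample. AGP1 (-0.01) became 0.0035 with the second array of ammonium sample 3, 0.1246 without batch samples 3 and 4, and -0.1372 to 0.0970 without 1 sample. OPT1 (-0.15) became 0.0040 within slide 2. The causes were not tested. Among the other values of single genes, 55 missed the threshold and 12 newly passed it, and 6832 stayed on their side. The medians of ribosome biogenesis, proteasome, cell separation and mitotic genes kept their signs in every fit with group means. Fold changes near the ends of the intensity range are compressed, which limits THI4 and the dimmest genes.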
